A study of Homo sapiens with 8 samples.

Results

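BMF and 9 other genes of the BCL2 family were followed across 2 ovarian cancer cell lines, OVSAHO and KURAMOCHI, cultured with simvastatin or with L-778123. The 10 genes were taken by name, as 5 BH3-only genes (BMF, BCL2L11, BBC3, PMAIP1 and BIK), 2 effector genes (BAX and BAK1) and 3 anti-apoptotic genes (BCL2, BCL2L1 and MCL1), out of 22428 genes that could be named on the arrays. They had 15 probes, and all 15 were bright enough to be among the 33753 probes tested, which covered 16955 genes. Total RNA was measured on 8 one-color Agilent arrays, with 2 arrays for each of 4 groups: OVSAHO with simvastatin, OVSAHO with L-778123, KURAMOCHI with simvastatin and KURAMOCHI with L-778123. Simvastatin inhibits HMG-CoA reductase, the early step of the mevalonate pathway, and L-778123 inhibits the prenyltransferases of both kinds, which attach lipids made by this pathway to proteins. The study compared the 2 drugs to find genes that simvastatin regulates relative to L-778123. How far protein prenylation was blocked in the cells of these arrays was not measured here. No untreated array was analysed here, so that a higher level with simvastatin cannot be told apart from a lower level with L-778123, and the concentrations and times of culture for these arrays were not given in the sources used here. Each line is a single established culture, the labels do not say whether the 2 arrays of a group came from separate cultures, and the p-values therefore measure the spread between these arrays, which may be technical.

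BCL2 family proteins decide whether the outer membrane of mitochondria stays closed. BAX and BAK1 are the effectors, which assemble into pores that let cytochrome c out and start the caspase cascade. BCL2, BCL2L1 (BCL-XL) and MCL1 hold the effectors and the BH3-only proteins in check, and the BH3-only proteins sense stress and set the effectors free or activate them directly. BMF is a BH3-only protein that is held on the cytoskeleton through a dynein light chain and is known for cell death after loss of attachment. BCL2L11 (BIM) also binds a dynein light chain, and BBC3 (PUMA) and PMAIP1 (NOXA) are known as targets of stress signalling.

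The sequences just upstream of 4 members are shown because these are the genes whose RNA differed at least 2-fold between the drugs in at least 1 cell line. Each is the 250 bases before an annotated RefSeq start, on assembly GRCh38.p14, written in the direction of the gene. The BMF stretch is chr15:40108880-40109129 on the minus strand, that of BCL2L11 is chr2:111120664-111120913 on the plus strand, that of BBC3 is chr19:47232668-47232917 on the minus strand, and that of BCL2 is chr18:63319770-63320019 on the minus strand. Capitals mark matches, on either strand, to 6 motifs searched: the FOXO core GTAAACA, the GC box GGGCGG, the CACCC box CACCC, the CRE core TGACGT, the E box CACGTG and the E2F motif TTTGGCG.
BMF: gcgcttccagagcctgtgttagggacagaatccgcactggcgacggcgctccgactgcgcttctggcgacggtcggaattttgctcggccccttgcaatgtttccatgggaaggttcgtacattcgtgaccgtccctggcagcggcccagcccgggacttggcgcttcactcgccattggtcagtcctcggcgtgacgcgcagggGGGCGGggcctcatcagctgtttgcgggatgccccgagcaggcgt
BCL2L11: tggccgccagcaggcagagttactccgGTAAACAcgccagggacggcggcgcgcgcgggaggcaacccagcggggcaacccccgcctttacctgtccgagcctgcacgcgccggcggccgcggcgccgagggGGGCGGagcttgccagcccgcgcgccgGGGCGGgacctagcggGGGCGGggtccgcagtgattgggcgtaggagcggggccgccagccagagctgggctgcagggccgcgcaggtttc
BBC3: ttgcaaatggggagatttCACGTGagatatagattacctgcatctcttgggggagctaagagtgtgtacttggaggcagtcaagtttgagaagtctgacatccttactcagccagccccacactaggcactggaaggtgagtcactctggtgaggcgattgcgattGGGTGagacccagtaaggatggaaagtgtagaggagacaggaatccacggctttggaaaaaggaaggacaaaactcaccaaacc
BCL2: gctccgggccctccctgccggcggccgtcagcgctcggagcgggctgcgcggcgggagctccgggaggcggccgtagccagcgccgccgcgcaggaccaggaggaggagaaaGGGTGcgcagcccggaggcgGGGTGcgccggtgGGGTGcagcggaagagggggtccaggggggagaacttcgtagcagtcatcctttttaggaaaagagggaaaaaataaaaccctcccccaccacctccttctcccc

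The BMF stretch held 1 GC box and none of the other motifs, and a second annotated start of BMF, at chr15:40106967-40107216, held none of the 6. The BCL2L11 stretch held 1 FOXO core and 3 GC boxes, that of BBC3 held 1 CACCC box and 1 E box, and that of BCL2 held 3 CACCC boxes. In none of these stretches did 2 motifs overlap. Of 35116 promoters of the same length, 2.98% held the FOXO core, 42.6% the GC box, 54.7% the CACCC box and 6.35% the E box, so that the FOXO core of BCL2L11 and the E box of BBC3 were the less common matches. A match is a description of letters only, and binding was not measured. The share of G and C was 65.2% for BMF, 76.8% for BCL2L11, 49.2% for BBC3 and 70.0% for BCL2, against a median of 58.0% over all promoters. BIK and MCL1 were not in the table, and 8 of the 10 members were.

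Levels are given as the log2 of the processed signal minus the 75th percentile of its array, so that 0 is a probe at that percentile and 1 unit is a 2-fold difference, and a level is compared only with the same probe on other arrays. A gene with several probes is described by the brightest over the 8 arrays. Differences were fitted with limma over all tested probes, with the Benjamini-Hochberg adjustment, and "called" below means an adjusted p under 0.05 together with at least a 2-fold difference. Every group had all 12 markers of Muellerian and serous epithelium well above background on its 2 arrays. Of markers of other cells, 3 of 4 leukocyte genes and 2 of 3 endothelial genes were likewise well above background in every group, while PECAM1, DCN and LUM were so on no array, CD3E on 1 array, and COL1A1 on all KURAMOCHI arrays and no OVSAHO array. Mean levels per group ran from -3.09 to 8.97 for the epithelial list, from -5.13 to 0.59 for the leukocyte list, from -6.90 to -0.58 for the endothelial list and from -7.23 to -2.60 for the fibroblast list, and the endothelial gene VWF was at -3.88 with simvastatin and -0.58 with L-778123 in OVSAHO. The part of such signals in the results was not tested. The 2 arrays of a group correlated at 0.995 to 0.996 over the probes tested.

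In OVSAHO, 2 members were called higher with simvastatin than with L-778123, BMF and BBC3, and 1 was called lower, BCL2. Of all genes tested, 5.69% were called higher and 5.88% were called lower in this comparison. With no fold threshold, 6 members were higher and 2 lower in OVSAHO at an adjusted p under 0.05, beside 26.4% and 27.5% of all genes. In KURAMOCHI, 3 members were called higher, BMF, BBC3 and BCL2L11, against 2.44% of all genes, and no member was called lower by limma, against 2.94%. At an unadjusted p under 0.05, 3 members were lower in KURAMOCHI, BCL2, BCL2L1 and BIK, and the methods' two-way analysis of variance called 0 lower. The share of all genes at that unadjusted cut-off is not given, so counts at it, here and below, are a description only. At an adjusted p under 0.05 with no fold threshold, 4 members were higher and 2 lower in KURAMOCHI, beside 17.1% and 18.4% of all genes. The median log2 fold change of the 5 BH3-only genes was 0.80 in OVSAHO and 1.11 in KURAMOCHI, that of the 2 effectors was 0.10 and 0.0056, and that of the 3 anti-apoptotic genes was -0.58 and -0.69, beside 0.014 and 0.012 over all genes. BMF was one of the genes that the study itself extracted from these arrays, so that its difference here is not independent of that choice. The study printed a fold change of 7.41 for BMF in OVSAHO, which matches a second, dim probe described below (7.41-fold). The brightest probe gave 7.74-fold. With simvastatin, BMF was 1.05-fold lower in OVSAHO than in KURAMOCHI by the dim probe and 1.43-fold lower by the brightest. The study asked for near equal levels in this comparison, a condition that the brightest probe would not meet.

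**Figure D1:**
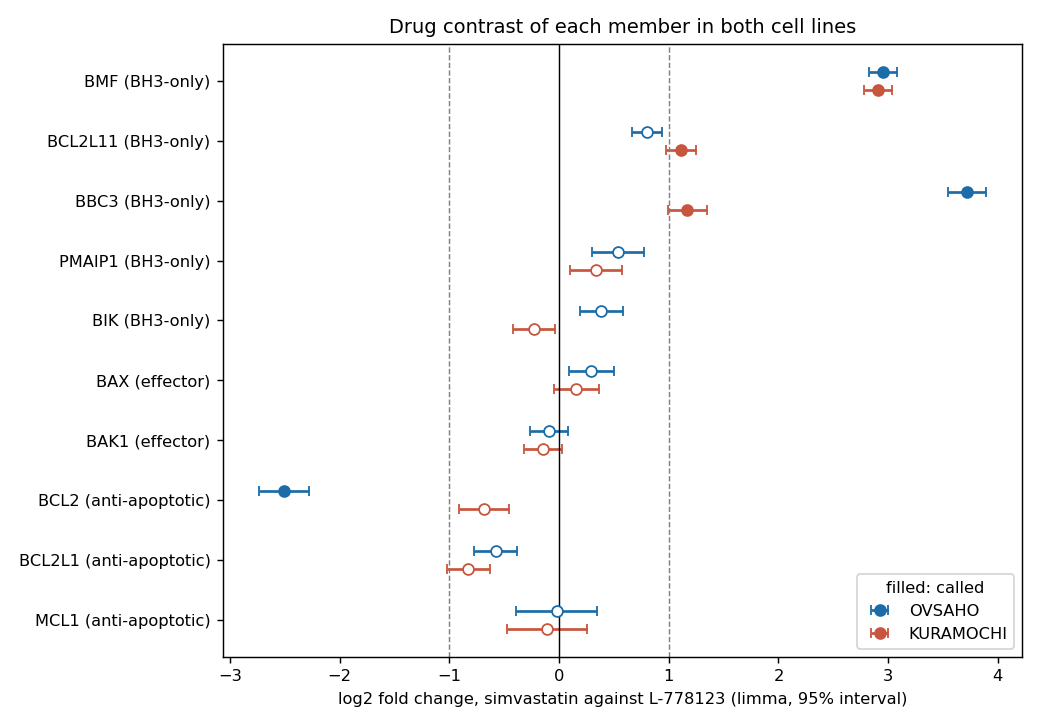
The log2 fold change of simvastatin against L-778123 (x axis, limma estimate with 95% interval) for the main probe of each of the 10 members (y axis, grouped by role), with 1 point per cell line and filled points for members called. BMF lies near 2.9 in both lines, whereas BBC3 and BCL2 lie farther from 0 in OVSAHO than in KURAMOCHI.

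BMF was high with simvastatin in both lines. Its main probe stood at 2.75 and 2.71 on the 2 OVSAHO arrays with simvastatin and at -0.24 and -0.20 with L-778123, and at 3.23 and 3.26 on the KURAMOCHI arrays with simvastatin and at 0.33 and 0.35 with L-778123. All 4 simvastatin arrays lay above all 4 L-778123 arrays. The level was 7.74-fold higher with simvastatin in OVSAHO (log2 2.95 ± 0.053, SE, n = 2 arrays per group, limma adjusted p = 1.28e-05) and 7.50-fold higher in KURAMOCHI (log2 2.91 ± 0.053, SE, limma adjusted p = 4.14e-05). The difference between the lines in this fold change was 0.046 on the log2 scale, with a 95% interval of -0.14 to 0.23 (limma adjusted p = 0.696), so that a difference between the lines was not detected. Among all genes, the fold change of BMF was at percentile 99.6 in OVSAHO and 99.9 in KURAMOCHI.

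The level of BMF also differed between the lines. It was 1.43-fold lower in OVSAHO than in KURAMOCHI with simvastatin (limma adjusted p = 2.64e-04) and 1.47-fold lower with L-778123 (limma adjusted p = 1.87e-04), and both differences stayed short of 2-fold. The order of the 4 groups from high to low was therefore KURAMOCHI with simvastatin, OVSAHO with simvastatin, KURAMOCHI with L-778123 and OVSAHO with L-778123, and each neighbour in this order differed from the next at an adjusted p under 0.05.

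A second BMF probe was dim. It stood at -2.05 and -1.88 with simvastatin and -5.21 and -4.51 with L-778123 in OVSAHO, and at -1.90 on both simvastatin arrays and at -4.90 and -3.83 with L-778123 in KURAMOCHI. In each line only 1 of the 2 L-778123 arrays had this probe well above background, replicate 2. It thus passed the filter on dim probes through the simvastatin groups, and its fitted log2 fold changes, 2.89 ± 0.38 (SE) in OVSAHO and 2.46 ± 0.38 in KURAMOCHI, are given as a description that does not add to the result of the main probe.

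**Figure D2:**
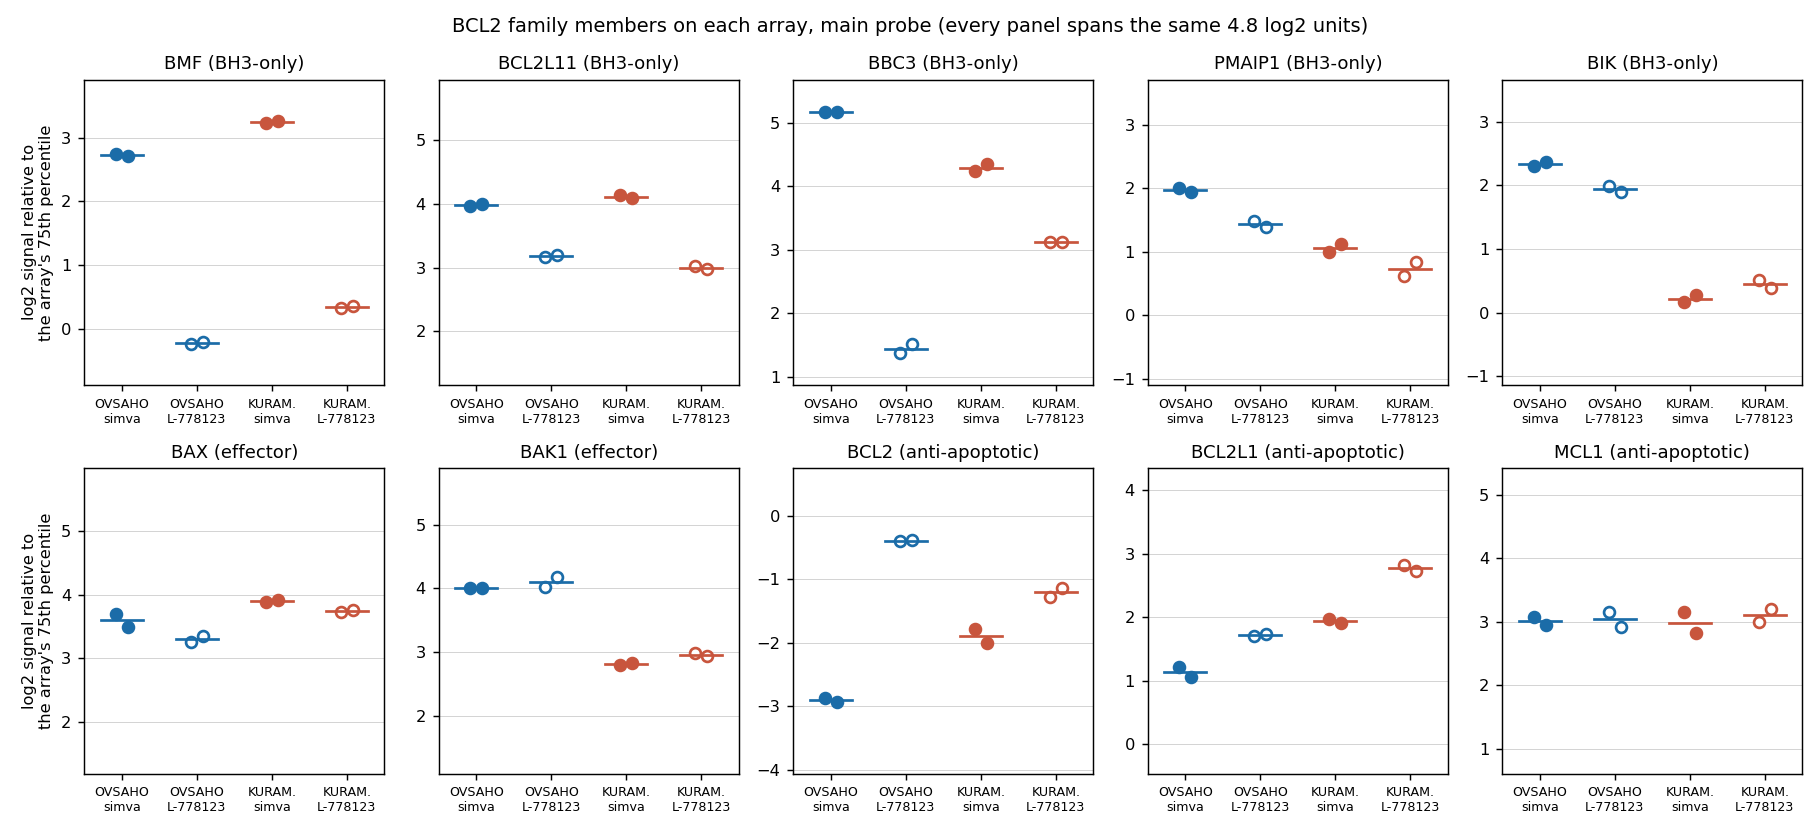
The level of each member's main probe on each of the 8 arrays (y axis, log2 signal relative to the 75th percentile of the array; x axis, the 4 groups of cell line and drug), with 1 point per array and a bar at the mean of each group; every panel spans the same number of log2 units. The arrays of a group lie close together, BMF is high in both simvastatin groups, and BCL2 is highest in OVSAHO with L-778123 and lowest in OVSAHO with simvastatin.

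BBC3, the gene of PUMA, which binds all the main anti-apoptotic proteins, had the largest difference of the 10 members in OVSAHO. It stood at 5.17 and 5.16 with simvastatin and 1.38 and 1.51 with L-778123 in OVSAHO, and at 4.24 and 4.35 against 3.12 and 3.13 in KURAMOCHI. The simvastatin arrays lay above the L-778123 arrays in both lines, and the gap between the drugs was wider in OVSAHO. The difference was 13.2-fold in OVSAHO (log2 3.72 ± 0.071, SE, limma adjusted p = 1.28e-05) and 2.25-fold in KURAMOCHI (log2 1.17 ± 0.071, SE, limma adjusted p = 3.68e-04). The fold change in OVSAHO exceeded that in KURAMOCHI by 2.55 ± 0.0997 (SE) on the log2 scale (limma adjusted p = 2.48e-04), which was called. BBC3 was the 1 member called higher in this difference between lines, where 4.29% of all genes were, and BCL2 was the 1 called lower, where 3.3% were. Without a fold threshold, the difference passed an adjusted p of 0.05 for 4 members, BBC3, BCL2, BIK and BCL2L11, and for 27.4% of all genes.

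The lines differed at both ends of BBC3. With L-778123 it was 3.20-fold lower in OVSAHO than in KURAMOCHI (limma adjusted p = 7.60e-06), and with simvastatin it was 1.83-fold higher in OVSAHO (limma adjusted p = 9.51e-05), under the 2-fold threshold. The order from high to low was OVSAHO with simvastatin, KURAMOCHI with simvastatin, KURAMOCHI with L-778123 and OVSAHO with L-778123, and all neighbours differed.

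BCL2L11, the gene of BIM, which can bind the effectors directly, was also higher with simvastatin. Its main probe stood at 3.96 and 4.0 against 3.16 and 3.20 in OVSAHO and at 4.14 and 4.09 against 3.03 and 2.97 in KURAMOCHI, and the 2 drugs did not overlap in either line. The difference was 2.16-fold in KURAMOCHI (log2 1.11 ± 0.055, SE, limma adjusted p = 2.46e-04), which was called, and 1.74-fold in OVSAHO (log2 0.80 ± 0.055, SE, limma adjusted p = 2.07e-04), which was under the 2-fold threshold. The fold change in OVSAHO was -0.31 on the log2 scale against that in KURAMOCHI (limma adjusted p = 0.0395), a difference that did not pass once the replicate number was added as a block (adjusted p = 0.0715) or once any 1 of the 8 arrays was left out (adjusted p = 0.0751 to 0.116). The 3 probes of BCL2L11 did not move alike. A second probe gave log2 fold changes of 0.72 in OVSAHO and 0.90 in KURAMOCHI (limma adjusted p = 0.00218 and 0.00201), whereas the third gave 0.14 and -0.094 (limma adjusted p = 0.267 and 0.495). With its 3 probes summarised by their median, the fold change of BCL2L11 in KURAMOCHI was 0.87 on the log2 scale and was no longer called.

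**Figure D3:**
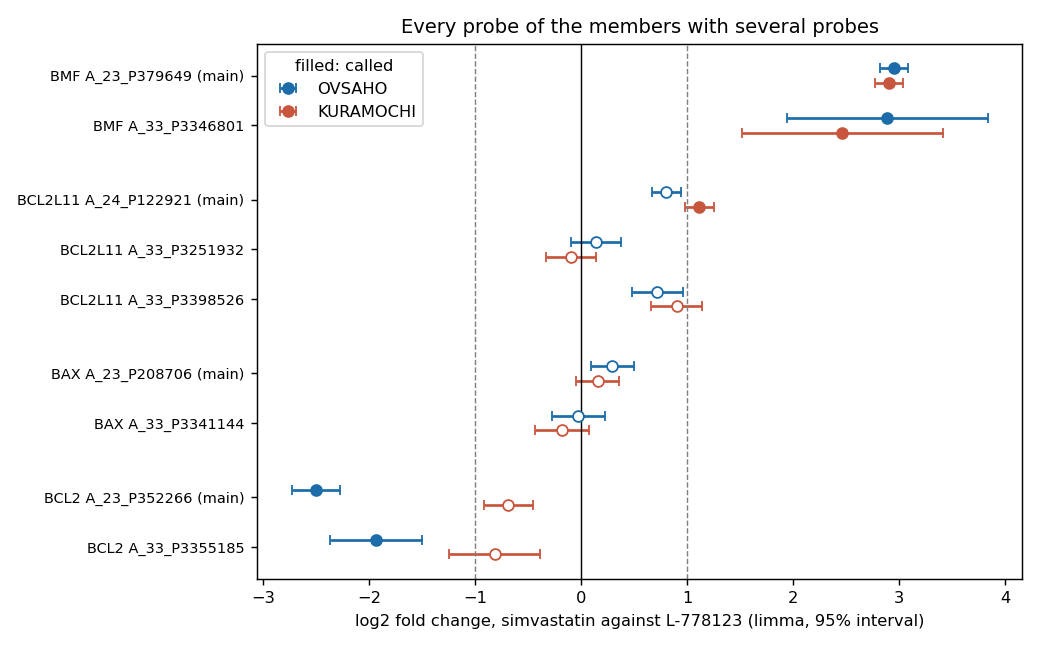
The log2 fold change of simvastatin against L-778123 (x axis, limma estimate with 95% interval) for every probe of the members that have more than 1 probe (y axis, by gene and probe), with 1 point per cell line and filled points for probes called. Both probes of BCL2 lie below 0 in both lines, the second BMF probe, which passed the filter through the simvastatin groups, has the widest intervals, and 1 of the 3 BCL2L11 probes and 1 of the 2 BAX probes lie near 0.

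PMAIP1 and BIK had smaller differences, and neither was called in a line. PMAIP1, the gene of NOXA, which binds MCL1, stood at 2.00 and 1.95 against 1.49 and 1.38 in OVSAHO and at 1.00 and 1.11 against 0.61 and 0.83 in KURAMOCHI, a log2 fold change of 0.54 (limma adjusted p = 0.00597) and 0.34 (limma adjusted p = 0.0442). The value in KURAMOCHI did not pass the test when any of 7 arrays was left out (adjusted p = 0.0620 to 0.171), the exception being the second L-778123 array of KURAMOCHI. BIK, whose protein sits at the endoplasmic reticulum and binds BCL2 and BCL2L1, stood at 2.30 and 2.36 against 1.99 and 1.90 in OVSAHO and at 0.16 and 0.28 against 0.51 and 0.38 in KURAMOCHI. The simvastatin arrays were thus the higher ones in OVSAHO and the lower ones in KURAMOCHI, with log2 fold changes of 0.39 (limma adjusted p = 0.00989) and -0.23 (limma adjusted p = 0.0762), and the first had an adjusted p of 0.0522 without the second simvastatin array of OVSAHO. The difference between these was 0.62 (limma adjusted p = 0.0147), under 2-fold, with an adjusted p of 0.0504 without that same array.

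BIK separated the lines more than the drugs. Averaged over both drugs it was 3.5-fold higher in OVSAHO than in KURAMOCHI (log2 1.81, limma adjusted p = 1.23e-06), with 4.33-fold under simvastatin and 2.82-fold under L-778123. BIK and BAK1 were the 2 members called higher in OVSAHO, where 18.3% of all genes were, and no member was called lower by limma, where 16.4% were. At an unadjusted p under 0.05, a cut-off without a share of all genes here, 4 members were lower. The two-way analysis of variance called 0 lower. At an adjusted p under 0.05 with no fold threshold, 3 members were higher and 4 lower, beside 42.4% and 40.5% of all genes. PMAIP1 was also higher in OVSAHO, by 1.76-fold (limma adjusted p = 7.54e-05), which was under the threshold.

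The effectors BAX and BAK1 were not called in either line. BAX stood at 3.69 and 3.49 against 3.25 and 3.34 in OVSAHO and at 3.89 and 3.91 against 3.72 and 3.76 in KURAMOCHI. The log2 fold change of BAX was 0.29 in OVSAHO (limma adjusted p = 0.0299) and 0.16 in KURAMOCHI (limma adjusted p = 0.202), and the first had an adjusted p of 0.0506 to 0.121 when 7 of the 8 arrays were left out one at a time, the exception being the second simvastatin array of OVSAHO. A second BAX probe, between -2.81 and -2.45 on the 8 arrays, gave -0.028 and -0.18 (limma adjusted p = 0.840 and 0.228).

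BAK1 stood at 4.01 and 4.0 with simvastatin and at 4.02 and 4.17 with L-778123 in OVSAHO, and at 2.80 and 2.83 against 2.99 and 2.93 in KURAMOCHI. The drugs differed by -0.093 on the log2 scale in OVSAHO, with a 95% interval of -0.27 to 0.080, and by -0.15 in KURAMOCHI, with an interval of -0.32 to 0.028 (limma adjusted p = 0.315 and 0.171), and a difference of 2-fold lies outside both intervals. BAK1 was 2.24-fold higher in OVSAHO over both drugs (log2 1.16, limma adjusted p = 4.20e-06), and all 4 OVSAHO arrays lay above all 4 KURAMOCHI arrays.

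BCL2, the founding anti-apoptotic gene of the family, was lower with simvastatin than with L-778123 in OVSAHO. It stood at -2.87 and -2.93 with simvastatin and at -0.40 and -0.39 with L-778123 in OVSAHO, and at -1.79 and -2.00 against -1.28 and -1.14 in KURAMOCHI. All simvastatin arrays lay below all L-778123 arrays, and the gap was wider in OVSAHO. The level was 5.67-fold lower in OVSAHO (log2 -2.5 ± 0.092, SE, limma adjusted p = 3.53e-05) and 1.61-fold lower in KURAMOCHI (log2 -0.69 ± 0.092, SE, limma adjusted p = 0.00406), the second being under the threshold. The fold change in OVSAHO differed from that in KURAMOCHI by -1.82 ± 0.13 (SE) on the log2 scale (limma adjusted p = 9.35e-04), which was called. The signal of this probe was low, and with the normexp background correction its log2 fold change was -1.56 in OVSAHO and -0.43 in KURAMOCHI, with a difference of -1.12, each in the same direction and on the same side of the threshold.

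The second BCL2 probe moved the same way. It stood at -4.03 and -3.67 with simvastatin and at -1.95 and -1.88 with L-778123 in OVSAHO, and at -3.41 and -2.97 against -2.4 and -2.34 in KURAMOCHI. It was well above background on all 8 arrays, but dim. On the OVSAHO arrays with simvastatin, the lowest signals well above background were -4.61 and -4.59, not far below this probe. Its log2 fold change was -1.94 in OVSAHO (limma adjusted p = 5.25e-04), which was called, and -0.82 in KURAMOCHI (limma adjusted p = 0.0189), and the difference of -1.12 between them was called as well (limma adjusted p = 0.0274). For the main probe the order of the groups was the reverse of that of BBC3: OVSAHO with L-778123 was highest, followed by KURAMOCHI with L-778123, KURAMOCHI with simvastatin and OVSAHO with simvastatin, and all neighbours differed. With simvastatin BCL2 was 2.00-fold lower in OVSAHO than in KURAMOCHI (limma adjusted p = 1.63e-04), and with L-778123 it was 1.76-fold higher (limma adjusted p = 4.28e-04).

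BCL2L1, whose main product BCL-XL holds BAX and BAK1 inactive, stood at 1.22 and 1.06 with simvastatin and at 1.70 and 1.73 with L-778123 in OVSAHO, and at 1.98 and 1.91 against 2.82 and 2.72 in KURAMOCHI. The drugs did not overlap in either line, and the simvastatin arrays were the lower ones. The level was 1.49-fold lower in OVSAHO (log2 -0.58 ± 0.078, SE, limma adjusted p = 0.00225) and 1.77-fold lower in KURAMOCHI (log2 -0.83 ± 0.078, SE, limma adjusted p = 0.00136), and both stayed short of 2-fold. With L-778123 it was 2.08-fold lower in OVSAHO than in KURAMOCHI (limma adjusted p = 6.73e-05).

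MCL1, a short-lived anti-apoptotic protein, stood at 3.08 and 2.95 with simvastatin and at 3.15 and 2.93 with L-778123 in OVSAHO, and at 3.16 and 2.82 against 3.00 and 3.20 in KURAMOCHI. All groups overlapped, and no pair of neighbouring groups passed the test. The log2 fold change had a 95% interval of -0.39 to 0.34 for OVSAHO and of -0.48 to 0.26 for KURAMOCHI (limma adjusted p = 0.914 and 0.612), so that a 2-fold difference lies outside both.

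**Figure D4:**
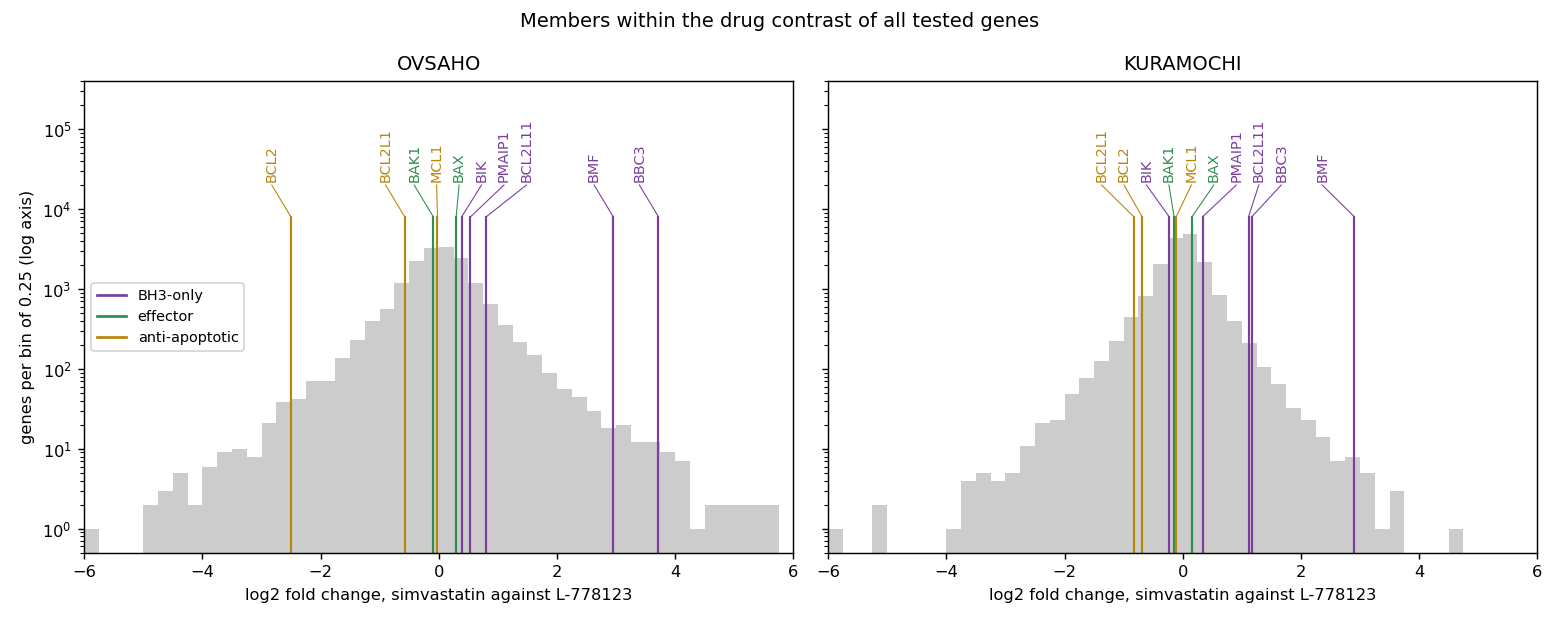
The number of tested genes (y axis, log scale) in bins of the log2 fold change of simvastatin against L-778123 (x axis), for OVSAHO and KURAMOCHI, with a line at each member colored by its role. BMF and BBC3 stand in the right tail in OVSAHO at percentiles 99.6 and 99.8, and BCL2 in the left tail at percentile 0.625.

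Of 13 other genes of the family, 11 were bright enough to be tested. In OVSAHO 2 were called higher, BOK and HRK, and in KURAMOCHI 1, HRK, with none called lower by limma. The shares of all genes called higher were 5.69% in OVSAHO and 2.44% in KURAMOCHI, and 5.88% and 2.94% were called lower. At an unadjusted p under 0.05, a cut-off without a share of all genes here, 2 of the 11 were lower in each line. The two-way analysis of variance called 0 lower. At an adjusted p under 0.05 with no fold threshold, 6 were higher and 1 lower in OVSAHO (26.4% and 27.5% of all genes). In KURAMOCHI these were 3 and 1 (17.1% and 18.4%). HRK, a BH3-only gene, stood at 0.15 and 0.26 against -1.08 and -1.01 in OVSAHO and at -0.50 and -0.48 against -1.55 and -1.44 in KURAMOCHI. Its log2 fold change was 1.25 in OVSAHO (limma adjusted p = 1.07e-04) and 1.01 in KURAMOCHI (limma adjusted p = 5.50e-04), the latter at the threshold, so that it was 0.96 without the first L-778123 array of KURAMOCHI, 0.997 without its second simvastatin array and 0.85 with normexp. For BOK, a relative of BAX and BAK1, the log2 fold change was 1.35 in OVSAHO (limma adjusted p = 9.96e-05) and -0.051 in KURAMOCHI (limma adjusted p = 0.638), and the difference of 1.40 was called (limma adjusted p = 0.00105). BCL2L12 was at -0.76 and -0.33 and BCL2L2, the gene of BCL-W, at 0.40 and 0.100, all under 2-fold. The median of the 11 genes was 0.19 in OVSAHO and 0.10 in KURAMOCHI.

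Downstream of the outer membrane, 2 of 13 genes were called lower with simvastatin in OVSAHO, CYCS and BIRC5, and limma called none higher at 2-fold. The shares of all genes called in that line were 5.88% lower and 5.69% higher. At an unadjusted p under 0.05, a cut-off without a share of all genes here, 7 of the 13 were higher and 2 lower. The two-way analysis of variance called 0 higher. At an adjusted p under 0.05 with no fold threshold, 6 were higher and 2 lower, beside 26.4% and 27.5% of all genes. For CYCS, the gene of cytochrome c, the log2 fold change was -1.17 in OVSAHO (limma adjusted p = 6.03e-05) and -0.61 in KURAMOCHI (limma adjusted p = 0.00101), and for BIRC5, the gene of survivin, which is known for its role in cell division, it was -1.13 (limma adjusted p = 1.00e-04) and -0.87 (limma adjusted p = 5.86e-04). In KURAMOCHI no gene of this list was called by limma, beside 2.44% of all genes called higher and 2.94% lower. There, 2 of the list were higher and 3 lower at an unadjusted p under 0.05, and the two-way analysis of variance called 0. With no fold threshold, 1 was higher and 3 lower there at an adjusted p under 0.05, beside 17.1% and 18.4% of all genes. DIABLO, whose protein relieves the block of caspases, was at 0.81 and 0.27. The median of the list was 0.23 in OVSAHO and 0.027 in KURAMOCHI.

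None of the 4 dynein light chain genes was called by limma in a line. Beside this, 5.69% of all genes were called higher and 5.88% lower in OVSAHO, and 2.44% and 2.94% in KURAMOCHI. At an unadjusted p under 0.05, a cut-off without a share of all genes here, 2 chains were lower in OVSAHO and 4 in KURAMOCHI. None was higher at that cut-off, and the two-way analysis of variance called 0. At an adjusted p under 0.05 with no fold threshold, 2 were lower in each line and none higher. Of all genes, 27.5% were lower and 26.4% higher by this measure in OVSAHO, and 18.4% and 17.1% in KURAMOCHI. DYNLL2, the light chain that holds BMF, was at -0.71 in OVSAHO (limma adjusted p = 0.00104) and -0.36 in KURAMOCHI (limma adjusted p = 0.0189), and DYNLL1, which holds BCL2L11, at -0.34 and -0.29 (limma adjusted p = 0.00341 and 0.0109). Without any 1 of the 4 KURAMOCHI arrays, the adjusted p of DYNLL2 in that line was 0.0576 to 0.0872, and that of DYNLL1 was 0.0509 to 0.0618 without 1 of those arrays other than its second simvastatin array. Of 6 genes of the ubiquitin pathway that act on family members, none was called by limma, with 3 lower in OVSAHO and 1 in KURAMOCHI at an unadjusted p under 0.05 and 0 by the two-way analysis of variance. With no fold threshold, the same numbers were lower at an adjusted p under 0.05 and none was higher, beside the shares of all genes given above for that measure. HUWE1, a ligase of MCL1, was at -0.53 and -0.31.

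The transcription factors known to act on BH3-only or other family genes were the longest of these lists and held the most called genes. This list was chosen with earlier results of these data known, and it includes ATF3, which the study extracted from these arrays. The counts of this list beside the shares of all genes are therefore a description only. Of 14, 5 were called higher with simvastatin than with L-778123 in OVSAHO, KLF2, ATF3, DDIT3, FOXO4 and JUN, and 1 was called lower, E2F1. Of all genes, 5.69% were called higher and 5.88% lower in that line. In KURAMOCHI, KLF2 and FOXO4 were called higher and E2F1 lower, beside 2.44% and 2.94% of all genes. KLF2, a factor known to rise with statins in endothelium, stood at 6.65 and 6.69 against 0.98 and 1.21 in OVSAHO and at 0.78 and 0.73 against -3.68 and -4.29 in KURAMOCHI, where 1 of the 2 L-778123 arrays, replicate 1, had it well above background. Its log2 fold change was 5.58 ± 0.20 (SE, limma adjusted p = 3.36e-05) in OVSAHO and 4.75 ± 0.20 (SE, limma adjusted p = 1.80e-04) in KURAMOCHI, where the estimate includes the array not well above background and was 2.94 with the normexp correction.

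ATF3 and DDIT3 (CHOP), factors of the stress response, the latter known to act on BBC3, had log2 fold changes of 2.78 and 1.80 in OVSAHO (limma adjusted p = 1.28e-05 and 3.36e-05) and of 0.94 and 0.81 in KURAMOCHI (limma adjusted p = 3.06e-04 and 8.13e-04). ATF3 was, like BMF, among the genes the study extracted from these arrays, and with the median over its probes its fold change in OVSAHO was 1.53. FOXO4 was at 1.36 in OVSAHO (limma adjusted p = 1.04e-04) and 1.04 in KURAMOCHI (limma adjusted p = 6.33e-04), the latter at the threshold and not called without the first simvastatin array (0.985) or the second L-778123 array (0.998) of KURAMOCHI, or with normexp (0.80). FOXO3, a known activator of BCL2L11 and BBC3, was at 0.72 and 0.46. JUN was at 1.17 in OVSAHO (limma adjusted p = 8.90e-05) and -0.28 in KURAMOCHI (limma adjusted p = 0.0217, and 0.0694 to 0.102 without 1 of the KURAMOCHI arrays other than its first simvastatin array), and the difference of 1.45 was called (limma adjusted p = 6.22e-04). E2F1 was at -2.11 in OVSAHO (limma adjusted p = 2.04e-05) and -1.32 in KURAMOCHI (limma adjusted p = 1.89e-04). The median of the 14 was 0.79 in OVSAHO and 0.22 in KURAMOCHI.

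**Figure D5:**
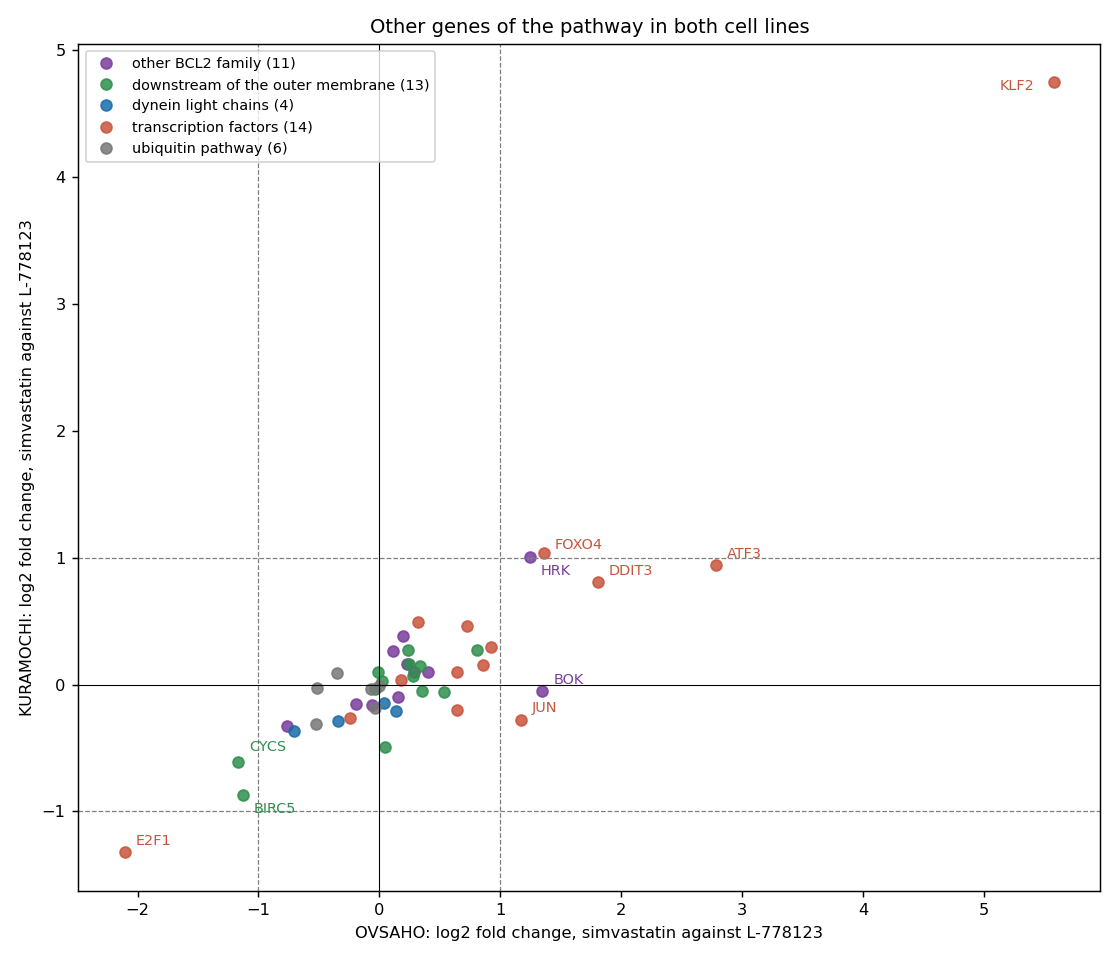
The log2 fold change of simvastatin against L-778123 in OVSAHO (x axis) and in KURAMOCHI (y axis) for the tested genes of the 5 other lists, 1 point per gene, with dashed lines at 2-fold and names for genes called in at least 1 line. KLF2, FOXO4 and HRK lie above 2-fold in both lines, E2F1 below it in both, and BOK and JUN above it in OVSAHO only.

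The level of BMF over the 8 arrays was compared with that of 14476 other genes well above background on all arrays. The 5 most alike by Pearson's r were MGP (0.994), SCX (0.994), CA11 (0.994), CREB3L4 (0.993) and NR1D1 (0.993), given as a description, since the 8 arrays are 4 groups of 2. Their log2 fold changes in OVSAHO and KURAMOCHI were 2.48 and 2.59 for MGP, 0.53 and 0.48 for SCX, 1.05 and 1.07 for CA11, 0.47 and 0.42 for CREB3L4, and 0.79 and 0.70 for NR1D1. Since these genes were chosen for their likeness to BMF, fold changes of like size in both lines follow from the choice. Among the members, r with BMF was 0.964 for BCL2L11, 0.892 for BBC3, 0.637 for BAX and 0.303 for PMAIP1, and it was negative for the others, from -0.134 for BIK to -0.846 for BCL2.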

How the data were processed

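The authors scanned 8 SurePrint G3 human arrays labelled with a single dye, extracted the images with Agilent Feature Extraction 11.5.1.1, and deposited a processed intensity for each spot, corrected for local background and not normalized between arrays. They also deposited a table of normalized intensity for the same arrays, which has the same median on every array, as quantile normalization gives, correlated with the scanner values at 0.999 or more and was used as an alternative. Samples were grouped by their labels. Control spots and 58 to 99 outlier spots per array were left out, spots of a probe were averaged, and the 75th percentile of an array's log2 values, at an intensity of 324 to 437, was subtracted. Of 58162 probes, 33753 passed the filter, which asked that a probe be well above background in both replicates of some group, and 30122 to 33437 probes were so on an array. The number of arrays, 2 per group, limits the precision.

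Gene names came from the probes' RefSeq accessions, which named 24768 of 50069 identifiers, and coordinates are given only for promoters. The fit used limma 3.58.1 in R 4.3.3, with 1 mean per group over all 8 arrays and Benjamini-Hochberg adjustment over all probes, and it was tested on simulated data. It stands in place of the two-way analysis of variance of the methods, with their thresholds. Alternatives were the filter, the authors' table, quantile normalization, normexp (offset 50), a percentile taken from bright probes, a floor for dim signals, the methods' analysis of variance (two-way, with Tukey's test), the replicate number as a block, fold thresholds of 1.5 and none, the median over probes, the groups alone, and each array left out. Plots were made in Python 3.11.15 with matplotlib 3.10.9. The members, the gene lists and the tests were chosen with earlier results of these data known. The genes named are the 10 members, the list genes called in either line and a few others of the lists, and the 5 genes most like BMF. Some genes of the lists are counted but not reported here by name.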

Additional observations from a re-analysis of the deposited data

Results flagged for a closer look

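The fold change of simvastatin against L-778123 differed between OVSAHO and KURAMOCHI at an adjusted p under 0.05 for 18 of the 58 genes compared, 4 of them members. Of all tested genes, 27.4% passed the same test (limma, with no fold threshold), and the share among the genes compared was near this. The values are the log2 fold change in OVSAHO minus that in KURAMOCHI. Among the members they were 2.55 for BBC3, -1.82 for BCL2, 0.62 for BIK and -0.31 for BCL2L11. In the rest of the family they were 1.40 for BOK, -0.44 for BCL2L12 and 0.30 for BCL2L2.

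Among genes downstream of the outer membrane, the difference was 0.60 for AIFM1 and -0.56 for CYCS. Among the transcription factors, it was 1.84 for ATF3 (0.82, and under 2-fold, with the median over its probes), 1.45 for JUN, 0.996 for DDIT3, 0.84 for FOXO1, 0.71 for RELA, 0.63 for ATF4 and -0.78 for E2F1. In the ubiquitin pathway, it was -0.49 for DCUN1D3 and -0.45 for MARCHF5. All arrays lay on 1 slide, with 1 position per array.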

How the results depend on the processing

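No member's call at 2-fold changed when 1 array was left out, and the counts of called members moved with the fold threshold and, for BCL2L11 in KURAMOCHI, with the median over probes (2 members called higher in place of 3). With no fold threshold, 6 members were called higher and 2 lower in OVSAHO (26.4% and 27.5% of all genes), 4 and 2 in KURAMOCHI (17.1% and 18.4%), 2 and 2 in the difference between the lines (13.4% and 14%), and 3 and 4 in OVSAHO against KURAMOCHI (42.4% and 40.5%). With a fold threshold of 1.5, they were 3 and 1 in OVSAHO (12.3% and 12.3%), 3 and 2 in KURAMOCHI (6.23% and 7.39%), 2 and 1 in the difference (8.48% and 7.53%), and 3 and 1 in OVSAHO against KURAMOCHI (27.9% and 26.1%). Values that changed direction were never called: with normexp, the average difference between lines was 0.066 for BCL2 and 0.041 for MCL1; MCL1 in OVSAHO was 0.021 with quantile normalization and 0.021 with the authors' table, which is itself normalized to the same median on every array and is not an independent alternative; with the median over probes, BAX in KURAMOCHI was -0.012 and the difference between lines of FOXO4 was -0.032. With each array left out in turn, MCL1 ran from -0.14 to 0.091 in OVSAHO, from -0.28 to 0.058 in KURAMOCHI, from -0.080 to 0.26 in the difference and from -0.10 to 0.066 in the average of lines, the BAK1 difference from -0.026 to 0.13, and BOK in KURAMOCHI from -0.12 to 0.019. The causes were not tested. With the replicate number as a block, the counts of called members were 2 higher and 1 lower in OVSAHO, 3 and 0 in KURAMOCHI, 1 and 1 in the difference and 2 and 0 between the lines, all equal to those without it. Samples with the same number deviated from their group means with a correlation of 0.000848 to 0.0555, so that the numbers were not taken to pair the arrays. The log2 fold change of BMF lay between 2.73 and 2.98 in OVSAHO and between 2.69 and 2.95 in KURAMOCHI under the other settings. The order of the 4 group means was kept by 9 or 10 of the 10 members under each alternative. Signal over background limits the second BMF probe and KLF2 in KURAMOCHI, which were near background with L-778123. It also limits the second BCL2 probe, which was dim with simvastatin in OVSAHO.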
